A study of Mus musculus with 34 samples.

Results

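The genes of blood coagulation, fibrinolysis and complement were followed as 1 set of 49 genes across mouse livers that differ in genotype or treatment. The members were chosen by gene symbol as 16 clotting factors and cofactors, 6 anticoagulants, 3 genes of fibrinolysis and 24 complement genes, out of 55487 gene IDs measured. Messenger RNA was sequenced from livers of male mice aged 3 months. The PiZ mouse carries human alpha-1 antitrypsin in its Z variant, a protease inhibitor of plasma whose Z form is retained as polymers inside hepatocytes, in the endoplasmic reticulum (ER). The first table holds 5 libraries labelled PiZ p50-KO given PBS by intraperitoneal injection, 5 PiZ libraries given PBS, 6 wild-type (WT) libraries taken 2 hours after TNFa (tumour necrosis factor, an inflammatory cytokine) and 6 WT libraries given PBS. The p50 knockouts lack this NF-kB subunit according to their label and also carry PiZ, so the PiZ PBS libraries are their controls. The second table holds 6 WT libraries from livers 24 hours after tunicamycin, an inhibitor of N-linked glycosylation that causes ER stress, and 6 WT libraries given its vehicle DMSO. The labels name neither the strain of the mice nor the promoter of the PiZ transgene. They put the tables in different batches, so no level of one table was tested against a level of the other. Nor do they say that each library is a separate mouse, and the p-values measure the spread between these libraries.

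Most clotting and complement proteins of plasma are made by hepatocytes and secreted through the ER and Golgi, many with N-linked sugars. Clotting factors circulate as inactive proteases that activate each other in sequence until thrombin turns fibrinogen into fibrin, which plasmin, made from plasminogen, dissolves. Complement is started by C1q on antibodies, by lectins on sugars or by the alternative pathway, converges on C3, and ends in a membrane pore of C5b to C9. The small fragments C3a and C5a signal through C3AR1 and C5AR1 on myeloid cells. C1q is made in the liver mainly by macrophages, and factor VIII by sinusoidal endothelial cells.

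The libraries held 34.3 to 54.0 M reads counted on genes except WT PBS 2 with 10.2 M, as recovered from the deposited log2 values. Values are log2 CPM, the base-2 logarithm of counts per M counted reads. WT PBS 2 stood apart, with 72.2% of its reads on protein-coding genes. In it 42 of the 49 members lay below the range of the other 5 WT PBS libraries and 5 lay above it, with a median difference of -3.35 log2 CPM from the mean of the others. It was left out of the comparisons below and is given apart. A gene was called when its adjusted p was under 0.05 (limma, adjusted over all genes tested), and all 49 members were tested in both tables. The median log2 fold change of all genes tested was 0.40 for PiZ against WT, -0.02 for TNFa, -0.22 for PiZ p50-KO against PiZ and 0.38 for tunicamycin, and the members are best read against these medians. Fold changes of log2 CPM are given with their standard error (± SE), and means with their standard deviation (SD).

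On the per-length scale (log2 CPM per kb of exon), C3 stood highest in WT PBS livers at 10.56 ± 0.11 (SD, n = 5). The 3 fibrinogen chains followed at 10.40 ± 0.12 for Fgb, 10.38 ± 0.16 for Fgg and 10.30 ± 0.14 for Fga. Each of these genes differed from the next in the order by no more than the sum of their SDs. Kininogen (Kng1, 9.44 ± 0.14), plasminogen (Plg, 8.95 ± 0.04) and prothrombin (F2, 8.75 ± 0.21) came next. The bottom of the order was held by C3ar1 at -0.82 ± 0.24, tissue factor F3 at -0.71 ± 0.43, C5ar1 at -0.39 ± 0.31 and the tissue factor pathway inhibitor Tfpi at -0.29 ± 0.40. In the DMSO livers of the second table C3 was again at the top with 11.78 ± 0.25 (SD, n = 6) and C3ar1 at the bottom with -0.48 ± 0.53. Levels of C4b, C1ra, C1s1, Kng1 and Kng2 are uncertain, because near-identical neighbours (C4a, C1rb, C1s2 and the other kininogen gene) can share their reads.

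The 3 fibrinogen genes lie side by side on chromosome 3 (GRCm38: Fgg 83007724 to 83015049, Fga 83026076 to 83033627 and Fgb 83040141 to 83049863). Their promoters are shown because the 3 chains, which assemble into 1 protein, differed from control in the same direction in each of the 4 comparisons below. The RefSeq promoter table (GRCm38.p6, 250 bases before to 50 after each start site) matched 39 of the 49 members with 42 promoters. Proc, Kng1, C4b, Plg, Masp1, Serping1, Cfi, C2, Cfb and C1qa had no entry. The promoters of Fga (chr3:83025903-83026202, plus strand), Fgb (chr3:83049814-83050113, minus strand) and Fgg (chr3:83007474-83007773, plus strand) read as follows, 5′ to 3′ on the strand of the gene, with matches to the motifs searched in capitals.
Fga: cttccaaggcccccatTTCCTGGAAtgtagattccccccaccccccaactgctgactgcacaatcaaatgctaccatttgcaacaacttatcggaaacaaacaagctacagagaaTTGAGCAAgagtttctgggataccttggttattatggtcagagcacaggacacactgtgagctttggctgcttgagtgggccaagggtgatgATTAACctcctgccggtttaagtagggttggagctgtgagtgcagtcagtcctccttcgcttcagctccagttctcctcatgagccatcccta
Fgb: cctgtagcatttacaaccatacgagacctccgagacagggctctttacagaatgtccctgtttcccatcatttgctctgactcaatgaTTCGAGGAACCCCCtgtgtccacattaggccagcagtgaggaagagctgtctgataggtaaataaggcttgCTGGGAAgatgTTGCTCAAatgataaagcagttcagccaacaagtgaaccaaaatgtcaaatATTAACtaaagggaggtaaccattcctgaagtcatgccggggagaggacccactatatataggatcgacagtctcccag
Fgg: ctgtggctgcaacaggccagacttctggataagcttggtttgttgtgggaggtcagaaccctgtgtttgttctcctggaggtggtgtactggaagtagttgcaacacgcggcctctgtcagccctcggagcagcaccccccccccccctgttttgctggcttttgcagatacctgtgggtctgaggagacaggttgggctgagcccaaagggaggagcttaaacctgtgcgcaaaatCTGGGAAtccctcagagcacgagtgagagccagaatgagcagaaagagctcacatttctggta
The motifs, searched on both strands, were an HNF1 core (GTTAAT), C/EBP (TTGCNNAA), STAT (TTCNNNGAA), the interleukin-6 response element (CTGGGAA), NF-kB (GGNNNTTCC) and the core of the unfolded protein response element (TGACGTGG). Positions are given for the leftmost base as printed, counted from the start site. Fga held STAT at -234, C/EBP at -135 and the HNF1 core at -43, the last 2 on the opposite strand. Fgb held STAT at -162 overlapping NF-kB at -157, the interleukin-6 element at -91, C/EBP at -80 and the HNF1 core at -29, with NF-kB and HNF1 on the opposite strand. Fgg held the interleukin-6 element at -13 and no other. The HNF1 core was in 23.8% of the 42 member promoters and in 7.1% of the 32851 promoters in the table. C/EBP was in 28.6% and 10.8%, STAT in 16.7% and 8.3%, the interleukin-6 element in 19.0% and 11.1%, and NF-kB in 16.7% and 18.5%. The unfolded protein response core was in 0 of the member promoters and in 0.7% of all. A match describes letters in this window and shows no binding.

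PiZ livers were set against WT livers after PBS to see how coagulation and complement transcripts stand when hepatocytes make the Z protein. Of the 49 members 14 were higher and 14 lower in PiZ, where 45.6% of all genes tested were called higher and 6.19% lower. The members' median log2 fold change was 0.04, below the 0.40 of all genes. Of the 24 complement genes 11 were higher (45.8%, near the share of all genes) and 4 lower, and of the 16 clotting factors 1 was higher and 7 were lower. The difference between these classes was not tested. Of the 6 anticoagulants 2 were higher and 2 lower, and of the 3 fibrinolysis genes 1 was lower. The fold changes of every member in the 4 comparisons are drawn in the plot of log2 fold changes by gene.

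**Figure D1:**
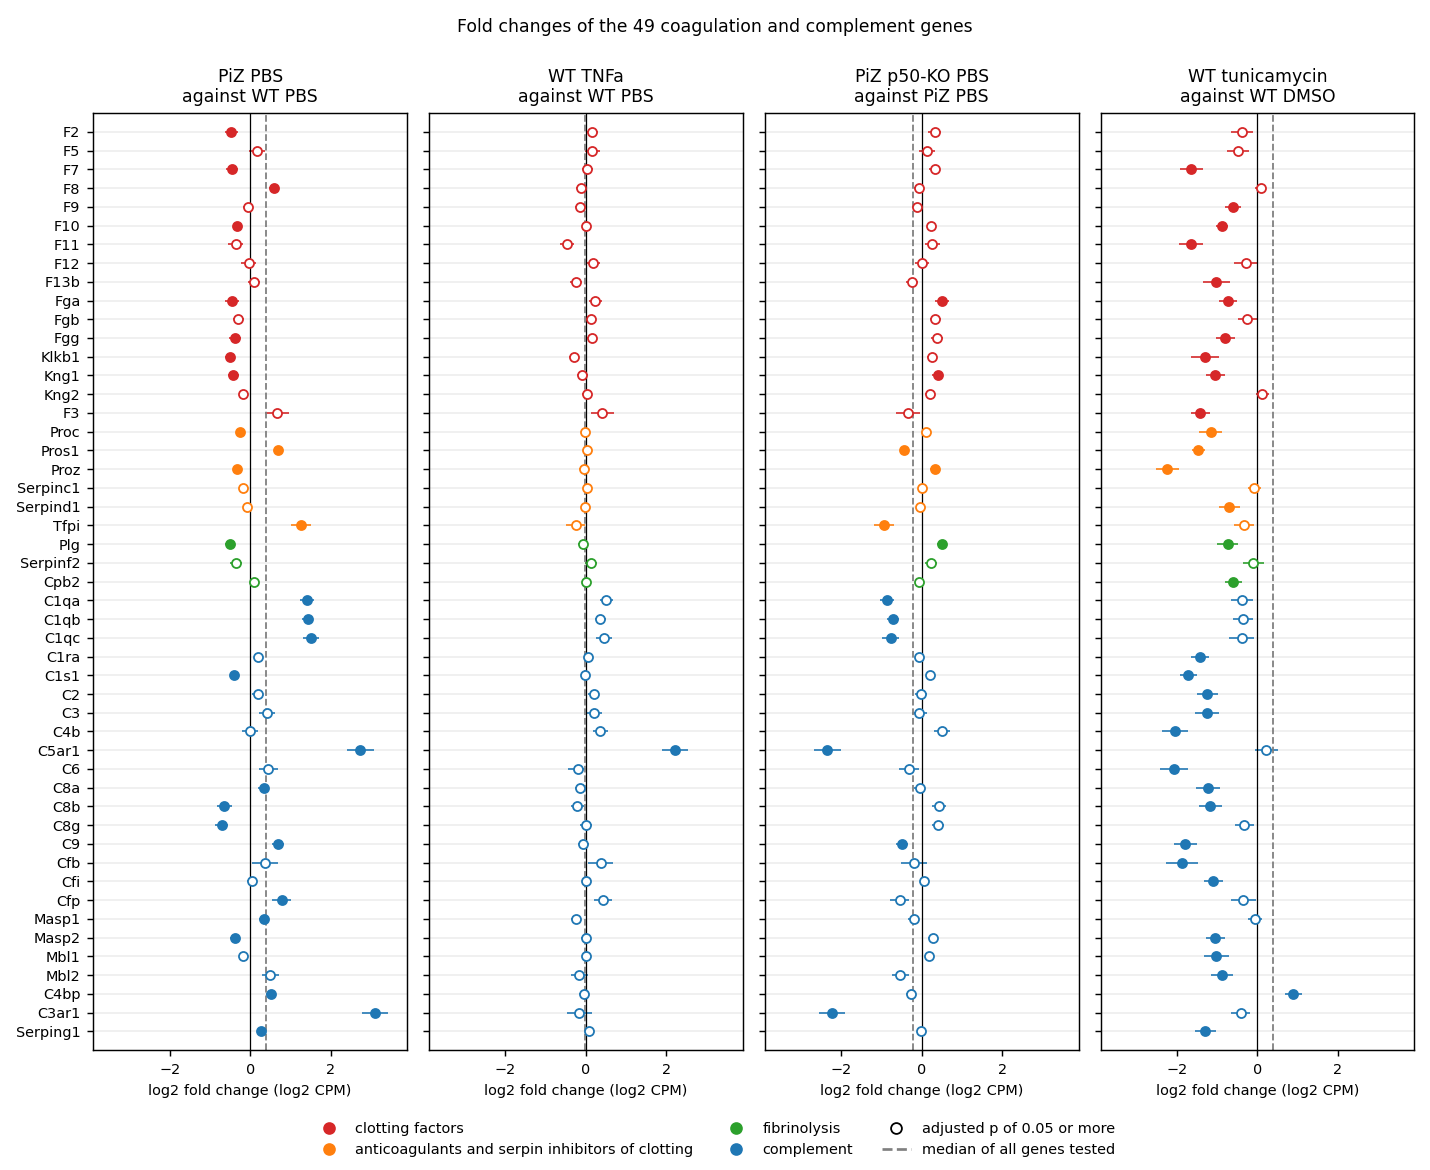
Log2 fold change (x axis, log2 CPM) of each of the 49 members (y axis) in the 4 comparisons, with bars of 1 SE; filled points have an adjusted p under 0.05 and open points do not, and the dashed line is the median of all genes tested. C3ar1 and C5ar1 stand at 3.11 and 2.74 in PiZ against WT, and after tunicamycin 45 of the 49 members lie below 0.

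The receptors of the complement fragments changed most in PiZ. C3ar1, the receptor of C3a (chromosome 6, 122847138 to 122856161), was at 4.26, 4.69, 4.60, 4.25 and 4.16 log2 CPM in PiZ libraries 1 to 5, against 1.43, 1.24, 1.59, 0.96 and 1.20 in WT PBS libraries 1 and 3 to 6. The groups did not overlap, and C3ar1 rose 8.61-fold (log2 fold change 3.11 ± 0.32, adjusted p = 2.44e-07). C5ar1, the receptor of C5a (chromosome 7, 16246743 to 16259540), was at 4.12, 4.12, 3.84, 2.91 and 3.56 in PiZ, against 1.09, 1.36, 0.79, 1.09 and 0.55 in WT PBS. PiZ 4 was the lowest of the 5 PiZ libraries and still above every WT PBS library in the comparison, and C5ar1 rose 6.66-fold (2.74 ± 0.33, adjusted p = 1.67e-06). In WT PBS 2 C3ar1 was at 3.82 and C5ar1 at 3.91, far above the other WT PBS libraries. With that library kept in the fit both genes were still called.

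The start regions of the 2 receptors are shown because they are the members with the greatest rise in PiZ and the greatest fall in PiZ p50-KO. They lie at chr6:122856108-122856407 (C3ar1) and chr7:16259289-16259588 (C5ar1), both on the minus strand, with the NF-kB matches of C3ar1 in capitals.
C3ar1: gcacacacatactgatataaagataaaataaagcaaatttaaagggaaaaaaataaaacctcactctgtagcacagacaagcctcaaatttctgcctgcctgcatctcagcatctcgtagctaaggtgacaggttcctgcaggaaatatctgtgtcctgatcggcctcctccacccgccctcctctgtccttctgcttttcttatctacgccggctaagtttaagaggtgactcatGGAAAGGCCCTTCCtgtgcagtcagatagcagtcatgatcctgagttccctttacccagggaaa
C5ar1: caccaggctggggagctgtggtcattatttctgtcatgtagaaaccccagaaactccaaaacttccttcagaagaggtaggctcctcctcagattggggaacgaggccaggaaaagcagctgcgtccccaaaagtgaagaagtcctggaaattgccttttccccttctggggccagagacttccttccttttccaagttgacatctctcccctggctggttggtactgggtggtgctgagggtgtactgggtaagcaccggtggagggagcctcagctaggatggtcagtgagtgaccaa
C3ar1 held 2 overlapping matches to GGNNNTTCC just before its start site, at -14 on the opposite strand and at -9. The window of C5ar1 held no match to any of the motifs.

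The C1q subunits, which begin the classical pathway and lie together on chromosome 4 (C1qb 136880129 to 136886187, C1qc 136889804 to 136893065, C1qa 136895917 to 136898803), rose as a group. C1qa was at 6.82, 6.80, 6.93, 6.01 and 6.46 in PiZ libraries 1 to 5, against 5.25, 5.38, 4.98, 5.12 and 5.27 in the WT PBS libraries. PiZ 4 was again lowest, without overlap with WT. The rises were 2.65-fold for C1qa (1.41 ± 0.18, adjusted p = 2.16e-06), 2.69-fold for C1qb (1.43 ± 0.14, adjusted p = 1.26e-07) and 2.86-fold for C1qc (1.51 ± 0.21, adjusted p = 5.83e-06). C1qb ranged over 5.79 to 6.48 in PiZ and 4.50 to 4.83 in WT PBS, and C1qc over 5.59 to 6.75 in PiZ and 4.67 to 5.21 in WT PBS. Macrophage genes moved with them: of 10 markers of macrophages and Kupffer cells 8 were higher and 1 lower in PiZ, and their summed level was 9.26 to 9.85 in PiZ and 7.70 to 7.98 in WT PBS. The part of these cells in the result was not tested, and in bulk tissue fewer or more cells of a type and less or more RNA per cell cannot be told apart. Properdin (Cfp), the stabilizer of the alternative C3 convertase that myeloid cells make, averaged 4.72 ± 0.58 in PiZ and 3.93 ± 0.24 in WT PBS (SD, n = 5 each) with overlapping libraries, and rose 1.73-fold (0.79 ± 0.24, adjusted p = 0.00852).

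**Figure D2:**
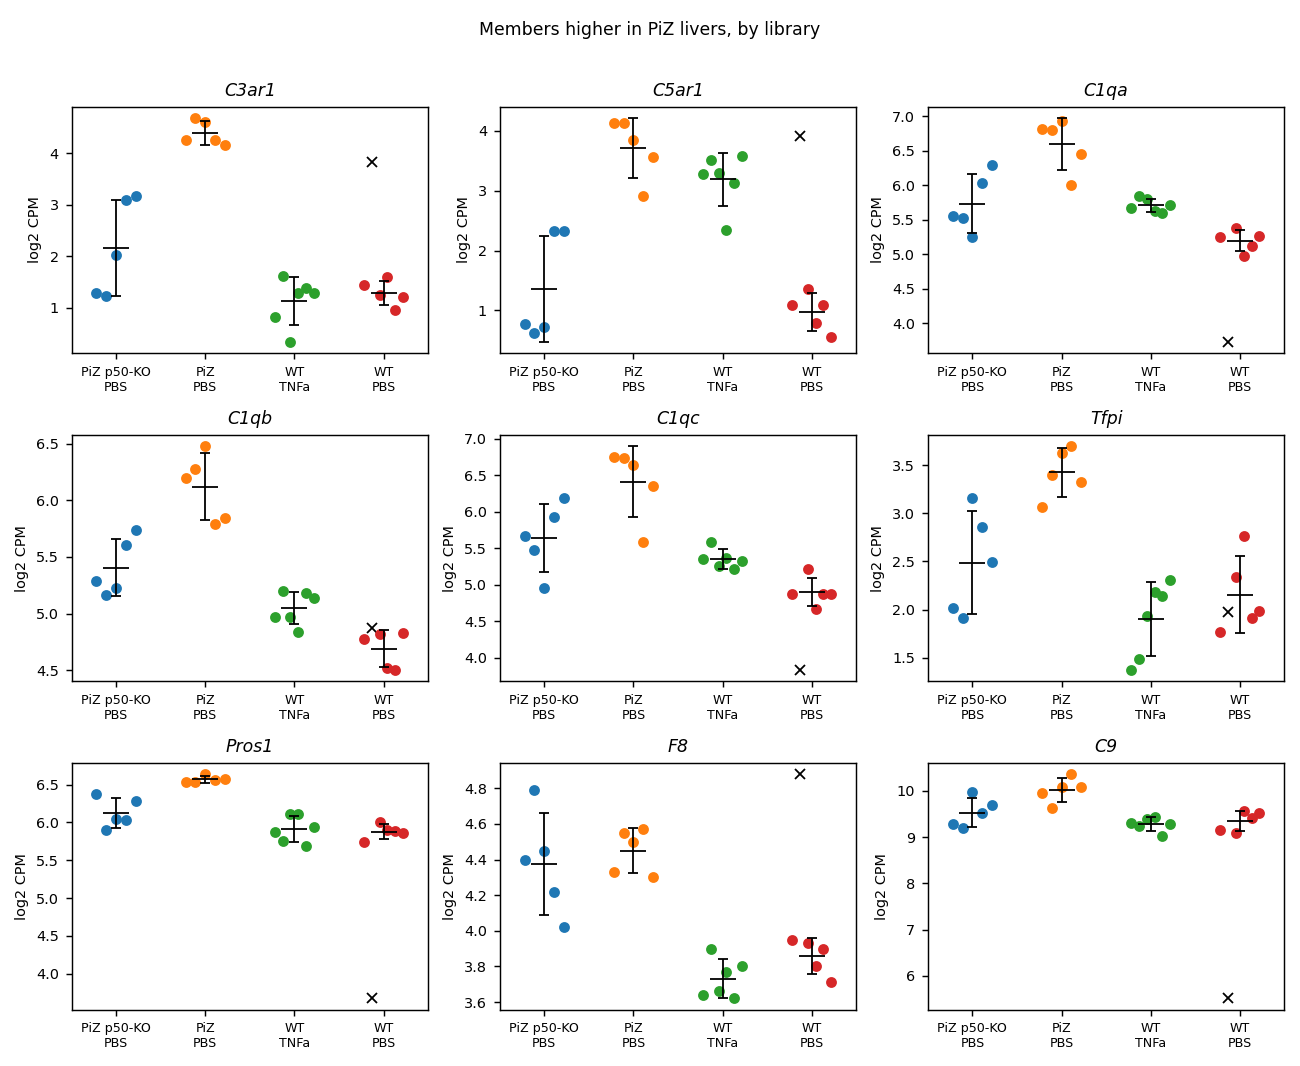
Level of 9 members (log2 CPM, y axis) in each library of the first table by group, with the mean and SD of each group and WT PBS 2, left out of mean and SD, as a cross. C3ar1 and C5ar1 are high in the 5 PiZ libraries; TNFa libraries lie at 2.35 to 3.58 for C5ar1 and at 0.33 to 1.61 for C3ar1.

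Other complement genes changed less. The pore protein C9 was 1.60-fold higher in PiZ (0.68 ± 0.15, adjusted p = 0.000737) and C8a 1.26-fold (0.33 ± 0.13, adjusted p = 0.0426), whereas the partners of C8a in the C8 complex were lower. C8g was at 8.16, 7.88, 7.73, 7.64 and 8.18 in PiZ libraries 1 to 5, against 8.66, 8.65, 8.29, 8.84 and 8.70 in WT PBS. These groups did not overlap, and C8g fell 1.64-fold (-0.71 ± 0.15, adjusted p = 0.000586). C8b fell 1.56-fold (-0.64 ± 0.18, adjusted p = 0.00464) with overlapping libraries. The inhibitors C4bp and Serping1, which restrain C4b and C1, were higher by 0.52 ± 0.13 and 0.26 ± 0.09 log2 units, and Masp1, a protease of the lectin pathway, by 0.34 ± 0.13. The related proteases Masp2 and C1s1 were lower by changes of -0.38 ± 0.13 and -0.40 ± 0.11. C3 averaged 13.34 ± 0.18 in PiZ and 12.92 ± 0.11 in WT PBS (SD, n = 5 each), and this 1.34-fold difference did not pass (0.42 ± 0.19, adjusted p = 0.0672), although its groups did not overlap. C4b differed by -0.01 and C2 by 0.19.

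The 7 clotting factors lower in PiZ were F2, Fga, Fgg, Klkb1, Kng1, F7 and F10. Prothrombin F2, the precursor of thrombin, was at 10.61, 10.64, 10.36, 10.02 and 10.78 in PiZ libraries 1 to 5, against 10.99, 11.12, 10.59, 11.09 and 10.94 in WT PBS. WT PBS 4 lay within the PiZ range, and F2 fell 1.38-fold (-0.47 ± 0.15, adjusted p = 0.0153). Fga was at 11.68, 11.32, 11.28, 11.50 and 11.41 in PiZ, against 12.11, 11.86, 11.79, 11.77 and 11.91 in WT PBS, without overlap, and fell 1.37-fold (-0.45 ± 0.17, adjusted p = 0.0301). Fgg fell 1.29-fold (-0.37 ± 0.15, adjusted p = 0.0444), and Fgb differed in the same direction without passing (-0.30 ± 0.14, adjusted p = 0.07). Prekallikrein (Klkb1) and kininogen (Kng1), which take part in contact activation, fell by 0.49 ± 0.13 and 0.42 ± 0.14 log2 units. Factors VII (F7) and X (F10) fell by 0.44 ± 0.14 and 0.32 ± 0.08. Klkb1 ranged over 6.21 to 6.69 in PiZ and 6.79 to 7.11 in WT PBS, Fgg over 10.93 to 11.30 in PiZ and 11.31 to 11.72 in WT PBS, and Fgb over 11.94 to 12.22 in PiZ and 12.20 to 12.52 in WT PBS. Of 9 hepatocyte markers 3 were lower and 1 higher in PiZ, with a summed level of 16.26 to 16.72 in PiZ and 16.53 to 16.90 in WT PBS. All 8 markers of stellate cells and fibroblasts were higher, with a summed level of 9.28 to 9.78 in PiZ and 7.10 to 7.27 in WT PBS. The part of these cells in the falls was not tested. F8 went the other way, at 4.45 ± 0.13 in PiZ and 3.86 ± 0.10 in WT PBS (SD, n = 5 each), a 1.51-fold rise without overlap (0.59 ± 0.12, adjusted p = 0.000366). The endothelial marker list, of which 7 of 8 genes were higher in PiZ, had a summed level of 8.29 to 8.80 in PiZ and 7.82 to 8.26 in WT PBS, and its part in the F8 difference was not tested. F5, F9, F11, F12, F13b, Kng2 and tissue factor F3 were not called, with differences between -0.36 and 0.67.

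The inhibitors of clotting split as well. Tfpi, which blocks the tissue factor and factor VIIa complex and is made largely by endothelium, was at 3.07, 3.40, 3.63, 3.70 and 3.33 in PiZ libraries 1 to 5, against 1.77, 2.34, 2.76, 1.91 and 1.99 in WT PBS. No library overlapped, and Tfpi rose 2.41-fold (1.27 ± 0.24, adjusted p = 0.000229). Protein S (Pros1), the cofactor of activated protein C, rose 1.61-fold (0.69 ± 0.10, adjusted p = 1.47e-05), with a narrow spread of 6.57 ± 0.04 in PiZ and 5.88 ± 0.10 in WT PBS (SD, n = 5 each). Protein C itself (Proc) and protein Z (Proz), a cofactor in the inhibition of factor Xa, were lower by changes of -0.25 ± 0.10 and -0.32 ± 0.11. Antithrombin (Serpinc1), the main inhibitor of thrombin, was at 10.97 ± 0.18 in PiZ and 11.15 ± 0.11 in WT PBS and was not called (-0.17 ± 0.11, adjusted p = 0.173). Plasminogen (Plg) was at 10.20, 10.25, 10.34, 10.51 and 10.41 in PiZ, against 10.79, 10.84, 10.87, 10.81 and 10.88 in WT PBS. The groups were clearly apart, and Plg fell 1.41-fold (-0.50 ± 0.13, adjusted p = 0.00341).

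**Figure D3:**
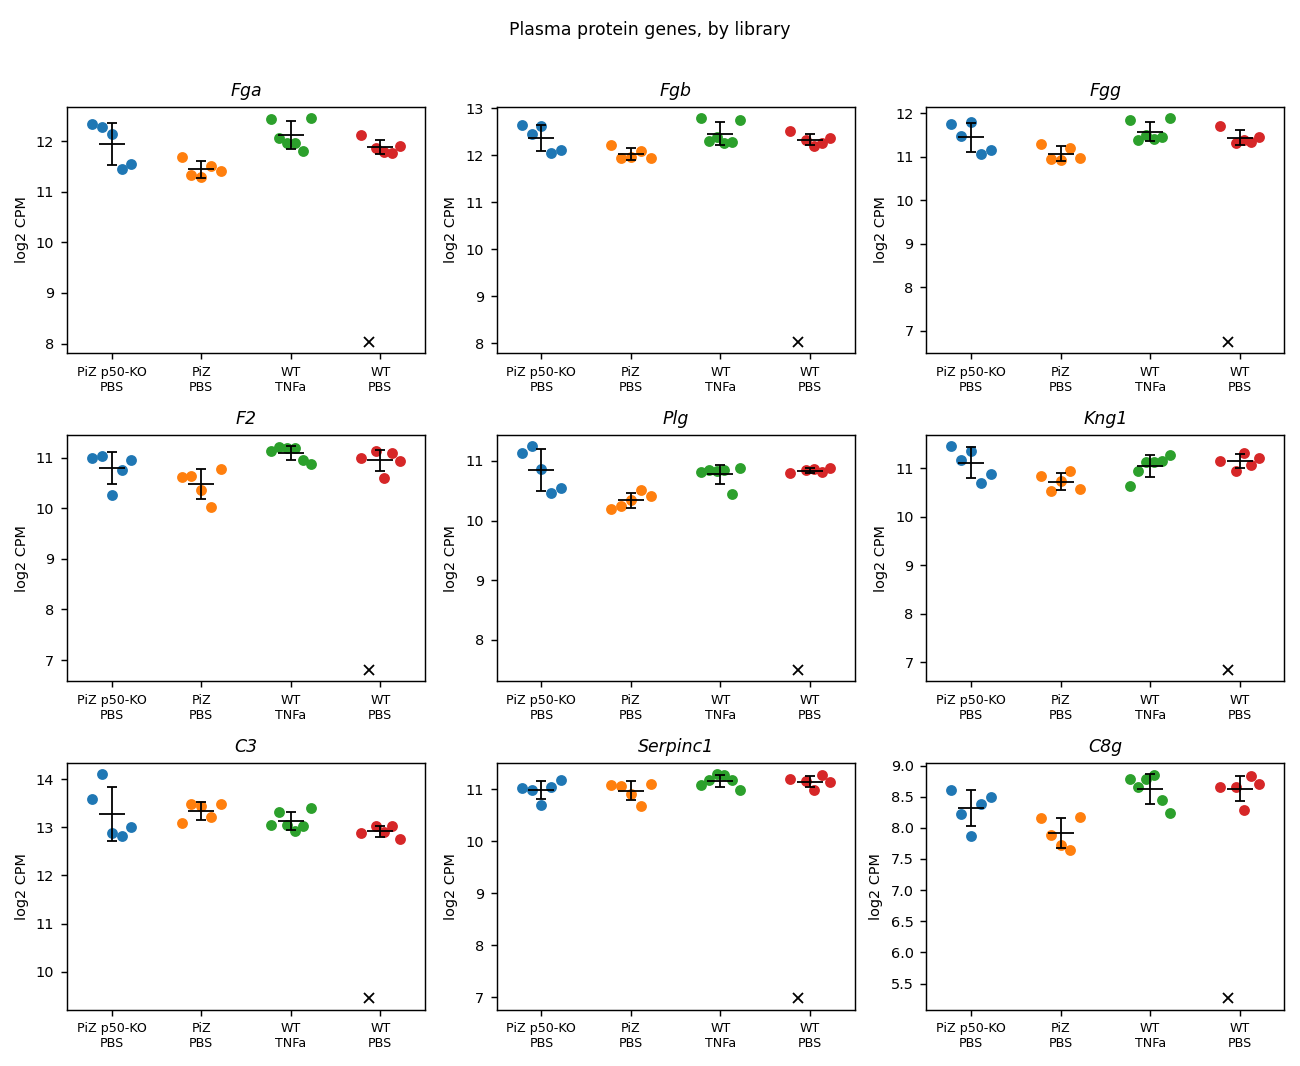
Level of 9 plasma protein genes (log2 CPM, y axis) in each library of the first table by group, with the mean and SD of each group and WT PBS 2, left out of mean and SD, as a cross. Plg lies at 10.20 to 10.51 in PiZ and 10.79 to 10.88 in WT PBS 1 and 3 to 6, and WT PBS 2 lies below 10 log2 CPM in all 9 genes.

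The lower calls in PiZ depend on how WT PBS 2 enters the fit. With all 22 libraries at equal weight 8 members were higher and 0 lower, and 12 of the 14 falls turned to values above 0. With all 22 libraries and a weight for each library by its spread (array weights), 20 members were higher and 16 lower. Shifting every library to the same median gave 6 higher and 26 lower, since it removes the rise of the median gene, and turned C8a, Masp1 and Serping1 to values below 0. Quantile normalization gave 12 higher and 10 lower and ended the calls of F2, Fga, Fgg, Kng1, Proc and Proz. C3ar1, C5ar1, the 3 C1q genes and Tfpi were higher under every alternative run, with and without WT PBS 2. Calls were lost without single libraries for Fga (without PiZ 2, 3 or 5 or WT PBS 1 or 6, adjusted p = 0.0518 to 0.0743), Fgg (without any but PiZ 1 or 4 and WT PBS 3, 0.0523 to 0.118) and C8a (without any but PiZ 2 and WT PBS 4 or 6, 0.0641 to 0.103). The same held for Proc (without PiZ 2 or 4 or WT PBS 1, 5 or 6, 0.0531 to 0.111), Masp1 (without PiZ 3 or 4 or WT PBS 1 or 5, 0.0571 to 0.113), Masp2 (without PiZ 4 or WT PBS 5, up to 0.0555), Serping1 (without PiZ 1 or 3, up to 0.0524), Kng1 (without PiZ 2, 0.0547) and Proz (without WT PBS 6, 0.0511).

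Of the wider genes of these pathways, 28 of the 47 tested were higher and 5 lower in PiZ, where 45.6% of all genes were called higher and 6.19% lower. The 4 greatest rises were in Itgax (5.04 ± 0.53), a chain of a complement receptor on myeloid cells, tissue plasminogen activator Plat (4.42 ± 0.50), the plasminogen receptor chain Anxa2 (3.68 ± 0.31) and urokinase Plau (3.39 ± 0.41). Plat was at 2.56, 2.74, 2.75, 2.21 and 2.84 in PiZ, against -1.70, -2.30, -2.55, -1.12 and -1.35 in WT PBS. Plat was also below 0 in every TNFa library, so it passed the filter only through libraries that carry PiZ. Its call and rank are therefore given without weight. The activators Plat and Plau had higher values in the same livers in which Plg was lower. The 4 greatest falls were in complement factor D (Cfd, -2.80 ± 0.87), Cfhr2 (-2.70 ± 0.24), histidine-rich glycoprotein (Hrg, -0.51 ± 0.13) and the protease inhibitor Mug1 (-0.41 ± 0.13). Cfd was low and variable, at -0.02 ± 0.98 log2 CPM per kb in WT PBS (SD) and -2.83 in PiZ, so its rank is uncertain. Cfhr2 was at 6.20 to 6.56 in the 5 PiZ libraries and 8.96 to 9.14 in the 5 WT PBS libraries. Hc, the mouse gene of complement C5, was higher by 2.91 ± 0.35 (adjusted p = 1.41e-06), with 8.54 to 9.03 in PiZ and 5.78 to 6.06 in WT PBS. In the WT livers given DMSO, of the second table, Hc was at 8.0 to 8.4, nearer to PiZ than to WT PBS. The WT groups of the 2 tables thus differ in Hc, and the part of batch or strain in its difference was not tested. Reads of Cfhr2 may be shared with near-identical genes.

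The comparison of TNFa with PBS in WT livers asks what an acute inflammatory signal does within 2 hours. C5ar1 was the only member called: 1 of 49 was higher and 0 lower, where 7.63% of all genes were called higher and 4.05% lower (limma, adjusted over all genes; at an unadjusted p under 0.05, 4 members were higher and 2 lower). C5ar1 was at 3.27, 3.51, 3.29, 2.35, 3.13 and 3.58 in TNFa libraries 1 to 6, against 0.55 to 1.36 in the 5 WT PBS libraries, a 4.64-fold rise (2.22 ± 0.32, adjusted p = 8.37e-05). TNFa 4 was the lowest, and Nfkb1, the gene of p50, was at 4.77 in it and at 6.57 to 6.95 in TNFa libraries 1 to 3, 5 and 6. C5ar1 was the member called in the fit with WT PBS 2 as well, and without TNFa 4. Of 4 tested neutrophil markers 3 also rose after TNFa, with a summed level of 2.72 to 6.75 after TNFa and 0.74 to 4.02 after PBS, and their part in the C5ar1 rise was not tested. C3ar1 did not follow, at 0.33 to 1.61 after TNFa and 0.96 to 1.59 after PBS (-0.16 ± 0.31, adjusted p = 0.85).

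The acute-phase members did not pass within 2 hours. Fga was at 12.12 ± 0.27 after TNFa (n = 6) and 11.89 ± 0.14 after PBS (n = 5), a difference of 0.23 ± 0.16 (adjusted p = 0.47). Fgb and Fgg differed by 0.13 ± 0.13 and 0.14 ± 0.14, C3 by 0.21 ± 0.18, F2 by 0.14 ± 0.15, Serpinc1 by 0.02 ± 0.10 and Plg by -0.06 ± 0.12. C1qa was at 5.60 to 5.85 after TNFa and 4.98 to 5.38 after PBS, without overlap, but its difference of 0.51 ± 0.17 did not pass (adjusted p = 0.0528). All 3 C1q genes were higher after TNFa without overlap, by 0.36 to 0.51, and 0 of them were called. Of all genes tested 5.25% did not overlap. The fit of the 2 groups alone called 5 members higher. Of the 47 wider genes tested 5 were higher and 1 lower, where 7.63% of all genes were called higher and 4.05% lower. The rises were led by the urokinase receptor Plaur (2.99 ± 0.56), Plau (2.43 ± 0.39), Itgax (1.60 ± 0.51) and the endothelial protein C receptor Procr (1.24 ± 0.22). Serpina5, an inhibitor of activated protein C, fell by 1.13 ± 0.29. Plaur was at 2.42 to 2.90 in 5 TNFa libraries and at -0.74 in TNFa 4.

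The comparison of libraries labelled PiZ p50-KO with PiZ asks which differences of the PiZ liver depend on p50. Nfkb1, the targeted gene, was at 4.51, 4.86, 3.31, 3.74 and 3.37 in libraries labelled PiZ p50-KO 1 to 5, against 4.62 to 5.58 in PiZ, so its transcripts were present in every such library. Which exons are removed is not given in the labels. Of the members 4 were higher and 8 lower, where 3.36% of all genes were called higher and 21.6% lower, and the members' median log2 fold change was -0.02. Complement had 6 of 24 genes lower (25%, near the share of all genes) and 0 higher (4 higher at an unadjusted p under 0.05). Of the clotting factors 2 of 16 were higher and 0 lower (0 at an unadjusted p under 0.05), the 6 anticoagulants had 1 higher and 2 lower, and 1 of the 3 fibrinolysis genes was higher. The PiZ libraries are shared with the comparison of PiZ with WT, so the 2 sets of values are not independent.

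C5ar1 was at 0.78, 0.63, 0.73, 2.33 and 2.32 in PiZ p50-KO libraries 1 to 5, against 2.91 to 4.12 in PiZ. Libraries 4 and 5 were higher than 1 to 3, yet below all PiZ libraries, and C5ar1 fell 5.11-fold (-2.35 ± 0.33, adjusted p = 6.02e-05). C3ar1 was at 1.29, 1.22, 2.02, 3.09 and 3.16, against 4.16 to 4.69 in PiZ, with libraries 4 and 5 again highest. It fell 4.71-fold (-2.23 ± 0.32, adjusted p = 6.86e-05). Both receptors were called lower under every alternative run, with and without WT PBS 2. The C1q genes fell 1.83-fold (C1qa, -0.87 ± 0.18), 1.70-fold (C1qc, -0.77 ± 0.21) and 1.64-fold (C1qb, -0.71 ± 0.14), with adjusted p = 0.00139, 0.0101 and 0.0011 in that order. C1qa ranged over 5.25 to 6.30 in PiZ p50-KO and 6.01 to 6.93 in PiZ, C1qb over 5.16 to 5.74 in PiZ p50-KO and 5.79 to 6.48 in PiZ, and C1qc over 4.96 to 6.19 in PiZ p50-KO and 5.59 to 6.75 in PiZ. The summed macrophage marker level was 8.27 to 9.05 in PiZ p50-KO and 9.26 to 9.85 in PiZ, with 9 of 10 markers lower, and its part in these differences was not tested. Tfpi fell 1.91-fold (-0.94 ± 0.24, adjusted p = 0.00835) with overlapping libraries. Tfpi ranged over 1.91 to 3.16 in PiZ p50-KO and 3.07 to 3.70 in PiZ. C9 and Pros1 were lower by changes of -0.50 ± 0.15 and -0.44 ± 0.10.

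The 4 rises were in Plg, Fga, Kng1 and Proz, and 2 of 9 hepatocyte markers were also higher and 0 lower, with a summed level of 16.45 to 17.01 in PiZ p50-KO and 16.26 to 16.72 in PiZ, whose part was not tested. Plg was at 11.13, 11.25, 10.86, 10.46 and 10.54 in PiZ p50-KO libraries 1 to 5, against 10.20 to 10.51 in PiZ, a 1.42-fold rise (0.51 ± 0.13, adjusted p = 0.00765) in which library 4 overlapped with PiZ. Fga was at 12.33, 12.27, 12.14, 11.44 and 11.54, against 11.28 to 11.68 in PiZ, and libraries 4 and 5 lay within the PiZ range (0.51 ± 0.17, adjusted p = 0.0322). Kng1 and Proz were higher by 0.40 ± 0.14 and 0.32 ± 0.11. Fgb, Fgg and F2 differed in the same direction by 0.34 ± 0.14, 0.38 ± 0.15 and 0.32 ± 0.15 without passing, C3 by -0.06 ± 0.19 and Serpinc1 by 0.01 ± 0.11. C8b and C8g, both lower in PiZ than in WT, differed by 0.42 and 0.40 and were not called. With all 22 libraries at equal weight 0 members were higher and 3 lower, and with array weights 4 and 11. WT PBS 2 is in neither group, so at equal weight the members' fold changes stayed the same. The estimate of spread, which all groups of the fit share, changed. In the fit of the 2 groups alone 0 members were higher and 6 lower, and after the shift to the same median 20 and 5. Leaving out single libraries ended the calls of Fga (PiZ 2, 3 or 5 or PiZ p50-KO 1, 2 or 3, adjusted p = 0.056 to 0.106), Kng1 (any but PiZ 4 and PiZ p50-KO 4 or 5, 0.06 to 0.153), Proz (PiZ 2, 4 or 5 or PiZ p50-KO 1 or 2, 0.0557 to 0.111) and C9 (PiZ p50-KO 1 or 2, 0.0604 to 0.0624).

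Of the 47 wider genes tested 3 were higher and 14 lower in PiZ p50-KO against PiZ, where 3.36% of all genes were called higher and 21.6% lower. The falls were led by Itgax (-2.73 ± 0.53), Anxa2 (-2.47 ± 0.31), Plat (-2.19 ± 0.50) and Itgb2 (-1.70 ± 0.26). The rises were in Cfd (3.15 ± 0.87), Cfhr2 (1.61 ± 0.24) and Mug1 (0.53 ± 0.13). Plat passed the filter only through libraries that carry PiZ, so its call and rank are given without weight here too. Cfd was low in PiZ, at -2.83 log2 CPM per kb, and its SE is wide. The libraries labelled PiZ p50-KO were not alike in several wider genes, of which 3 are given. Cfhr2 was at 8.67, 8.56, 8.11, 7.96 and 6.62 in libraries 1 to 5, against 6.20 to 6.56 in PiZ and 8.96 to 9.14 in WT PBS, so that library 5 lay nearest to PiZ. Hc was at 6.69, 7.02, 9.40, 8.83 and 8.81, against 8.54 to 9.03 in PiZ and 5.78 to 6.06 in WT PBS, so that libraries 1 and 2 stood between WT PBS and PiZ. F13a1, the A chain of factor XIII, was at -2.61 and -2.55 in libraries 1 and 2 and at 0.28 to 1.22 in libraries 3 to 5. These genes and libraries were singled out after their values were seen.

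**Figure D4:**
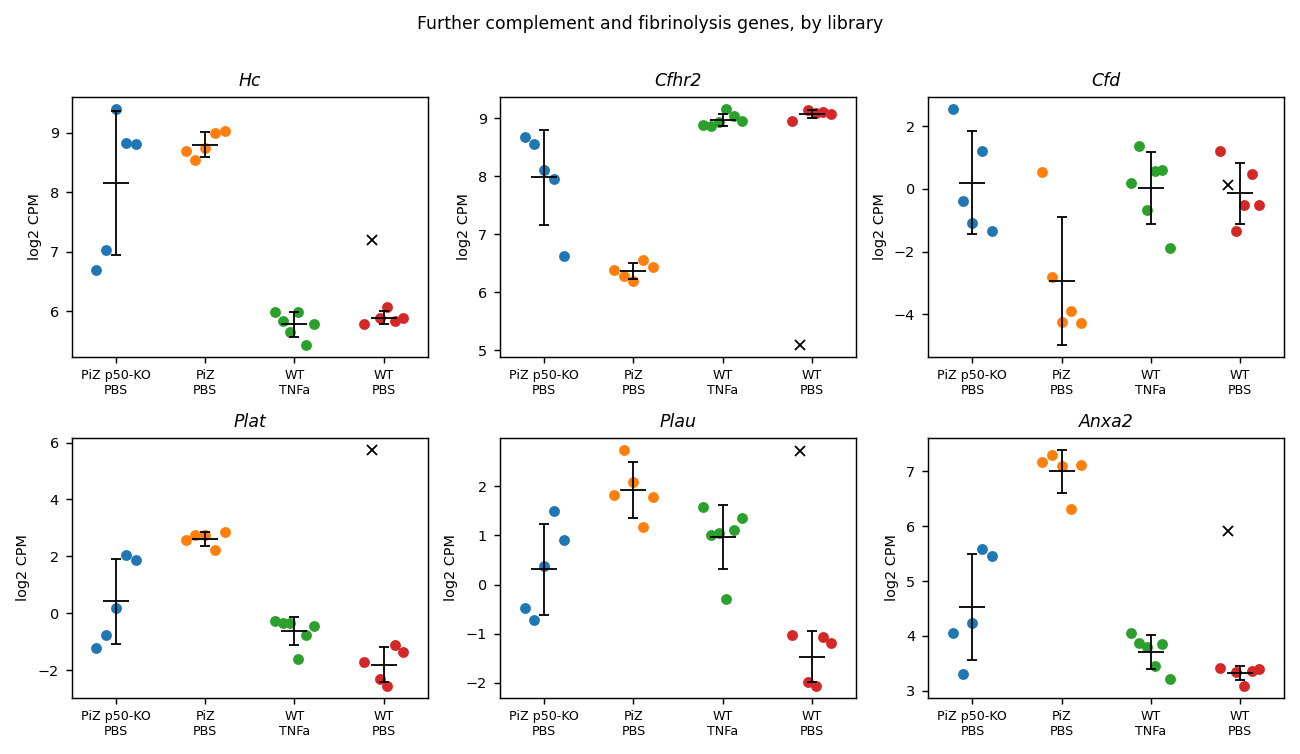
Level of 6 further complement and fibrinolysis genes (log2 CPM, y axis) in each library of the first table by group, with the mean and SD of each group and WT PBS 2, left out of mean and SD, as a cross. Hc splits the 5 PiZ p50-KO libraries at 6.69 and 7.02 against 8.81 to 9.40, and Cfhr2 lies at 6.62 in 1 of them and at 7.96 to 8.67 in the other 4.

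Set directly against WT PBS, PiZ p50-KO livers had 3 members higher and 0 lower (0 lower at an unadjusted p under 0.05, 9 higher), where 10.5% of all genes were called higher and 1.14% lower. The 3 were C1qc (0.75 ± 0.21, adjusted p = 0.0256), C1qb (0.71 ± 0.14, adjusted p = 0.00516) and F8 (0.52 ± 0.12, adjusted p = 0.0114). C3ar1 differed by 0.87 ± 0.32 and C5ar1 by 0.38 ± 0.33, and neither was called (adjusted p = 0.0795 and 0.489). The fibrinogen genes and Plg differed by 0.01 to 0.06. With WT PBS 2 in the fit at equal weight 0 members were called, and with array weights 11 were higher and 2 lower. The call of C1qc was lost without PiZ p50-KO 4 or 5 or WT PBS 4, 5 or 6 (adjusted p = 0.0537 to 0.0746).

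Set directly against TNFa-treated WT livers, PiZ livers had 14 members higher and 14 lower, where 47.7% of all genes were called higher and 8.11% lower. C3ar1 (3.27 ± 0.31), Tfpi (1.52 ± 0.23) and C1qb (1.07 ± 0.13) were the greatest rises. C8g (-0.71 ± 0.15), Fga (-0.68 ± 0.16) and F2 (-0.61 ± 0.15) were the greatest falls. C5ar1 was at 2.91 to 4.12 in PiZ and 2.35 to 3.58 after TNFa and was not called (0.52 ± 0.32, adjusted p = 0.173). With all 22 libraries at equal weight 7 members were higher and 0 lower, and with array weights 18 and 17. Here too WT PBS 2 is in neither group, so at equal weight the members' fold changes stayed the same and the shared spread changed.

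The comparison of tunicamycin with DMSO in WT livers asks what ER stress does to transcripts after 24 hours. Of the 49 members 31 were lower and 1 was higher, where 13.5% of all genes were called lower and 45.3% higher. The median log2 fold change was -0.88 over the members and 0.38 over all genes. All 4 classes took part: 10 of 16 clotting factors, 4 of 6 anticoagulants, 2 of 3 fibrinolysis genes and 15 of 24 complement genes were lower. In the first 3 classes 0 were higher, also at an unadjusted p under 0.05. The hepatocyte markers moved too, with 3 of 9 lower and 1 higher and a summed level of 15.07 to 16.37 after tunicamycin and 16.52 to 16.97 after DMSO, and their part in the members' falls was not tested. The series' labels match 3 of the 6 tunicamycin libraries to a replicate number, and the other 3 are called unnumbered.

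Of the 7 vitamin K-dependent proteins among the members, 6 fell, by unequal amounts. Proz had the greatest fall of all members and was at 7.33, 7.05, 6.14, 8.35, 7.67 and 6.97 in tunicamycin libraries 1, 5, 6 and the 3 unnumbered ones, against 9.17 to 9.63 in the 6 DMSO libraries. No library overlapped, and Proz fell 4.73-fold (-2.24 ± 0.28, adjusted p = 3.59e-05). F7 fell 3.12-fold (-1.64 ± 0.30, adjusted p = 0.000465), Pros1 2.78-fold (-1.47 ± 0.16, adjusted p = 1.35e-05), Proc 2.24-fold (-1.17 ± 0.28), F10 1.84-fold (-0.88 ± 0.15) and F9 1.52-fold (-0.61 ± 0.20). F2, of the same family, was at 10.58, 10.09, 9.71, 11.04, 10.81 and 10.07 after tunicamycin and 10.92, 9.79, 10.98, 10.94, 10.94 and 11.06 in DMSO libraries 1 to 6. DMSO 2 lay well below the other DMSO libraries, and F2 was not called (-0.39 ± 0.27, adjusted p = 0.229).

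Of the other clotting genes, factor XI (F11) fell 3.14-fold (-1.65 ± 0.30, adjusted p = 0.000437) without overlap, tissue factor F3 2.67-fold (-1.42 ± 0.25), Klkb1 2.47-fold (-1.30 ± 0.35), Kng1 2.07-fold (-1.05 ± 0.23) and F13b 2.03-fold (-1.02 ± 0.33). Among the fibrinogen chains Fga fell 1.67-fold (-0.74 ± 0.23, adjusted p = 0.0126) and Fgg 1.73-fold (-0.79 ± 0.23, adjusted p = 0.00989), while Fgb was at 12.54 ± 0.41 after tunicamycin and 12.79 ± 0.32 after DMSO (SD, n = 6 each) and was not called (-0.25 ± 0.24, adjusted p = 0.371). Plg fell 1.67-fold (-0.74 ± 0.25, adjusted p = 0.0224). Quantile normalization ended the calls of Fga, Fgg and Plg. Antithrombin was not called: Serpinc1 was at 10.61, 10.56, 10.37, 10.83, 10.75 and 10.53 after tunicamycin, against 10.77, 10.09, 10.80, 10.84, 10.80 and 10.83 in DMSO libraries 1 to 6 (-0.08 ± 0.16, adjusted p = 0.686). F5, F8, F12, Kng2, Tfpi and Serpinf2 were not called either, with differences between -0.48 and 0.12.

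Some genes of the classical, the lectin and the alternative route fell, and so did genes of the pore. C6, a protein of the pore, fell 4.21-fold (-2.07 ± 0.36, adjusted p = 0.000343), C4b 4.15-fold (-2.05 ± 0.33, adjusted p = 0.000189) and factor B (Cfb), the protease of the alternative pathway, 3.68-fold (-1.88 ± 0.39, adjusted p = 0.00118). C6 ranged over 4.45 to 7.04 after tunicamycin and 6.92 to 8.07 after DMSO, C4b over 7.90 to 9.94 after tunicamycin and 9.91 to 11.44 after DMSO, and Cfb over 0.12 to 2.46 after tunicamycin and 1.57 to 3.61 after DMSO. C9 was at 7.98, 7.48, 6.50, 8.59, 7.51 and 7.57 after tunicamycin, against 8.81 to 9.74 after DMSO, without overlap, and fell 3.46-fold (-1.79 ± 0.28, adjusted p = 0.000191). The 3 classical pathway proteases fell, with log2 fold changes of -1.71 ± 0.22 for C1s1, -1.42 ± 0.23 for C1ra and -1.25 ± 0.27 for C2. C1s1 ranged over 5.63 to 7.11 after tunicamycin and 7.82 to 8.19 after DMSO. C3 was at 13.13, 12.79, 11.95, 13.73, 13.33 and 12.39 after tunicamycin, against 13.78 to 14.48 after DMSO. The groups did not overlap, although the highest tunicamycin library lay close to the lowest DMSO library, and C3 fell 2.39-fold (-1.26 ± 0.29, adjusted p = 0.00262). Masp2, Mbl1 and Mbl2 of the lectin pathway fell, with log2 fold changes of -1.05, -1.02 and -0.88, as did the regulators Serping1 (-1.29) and Cfi (-1.09).

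C4bp was the single member that rose, at 9.89, 9.71, 9.16, 10.29, 10.22 and 9.80 after tunicamycin, against 8.77, 8.68, 8.86, 8.77, 9.51 and 9.15 in DMSO libraries 1 to 6. DMSO 5 overlapped with tunicamycin 6, and C4bp rose 1.85-fold (0.89 ± 0.21, adjusted p = 0.00247). Of the 9 alternatives 2 ended this call, among them the shift to the same median. The C1q genes and both receptors were not called: C1qa, C1qb and C1qc differed by -0.39, -0.37 and -0.39, C3ar1 by -0.42 and C5ar1 by 0.22. Of the 10 macrophage and Kupffer cell markers 5 were lower and 0 higher, with a summed level of 7.83 to 8.33 after tunicamycin and 8.04 to 9.71 after DMSO, and their part was not tested. DMSO 2 was lowest and DMSO 5 highest of the DMSO libraries for each C1q gene.

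**Figure D5:**
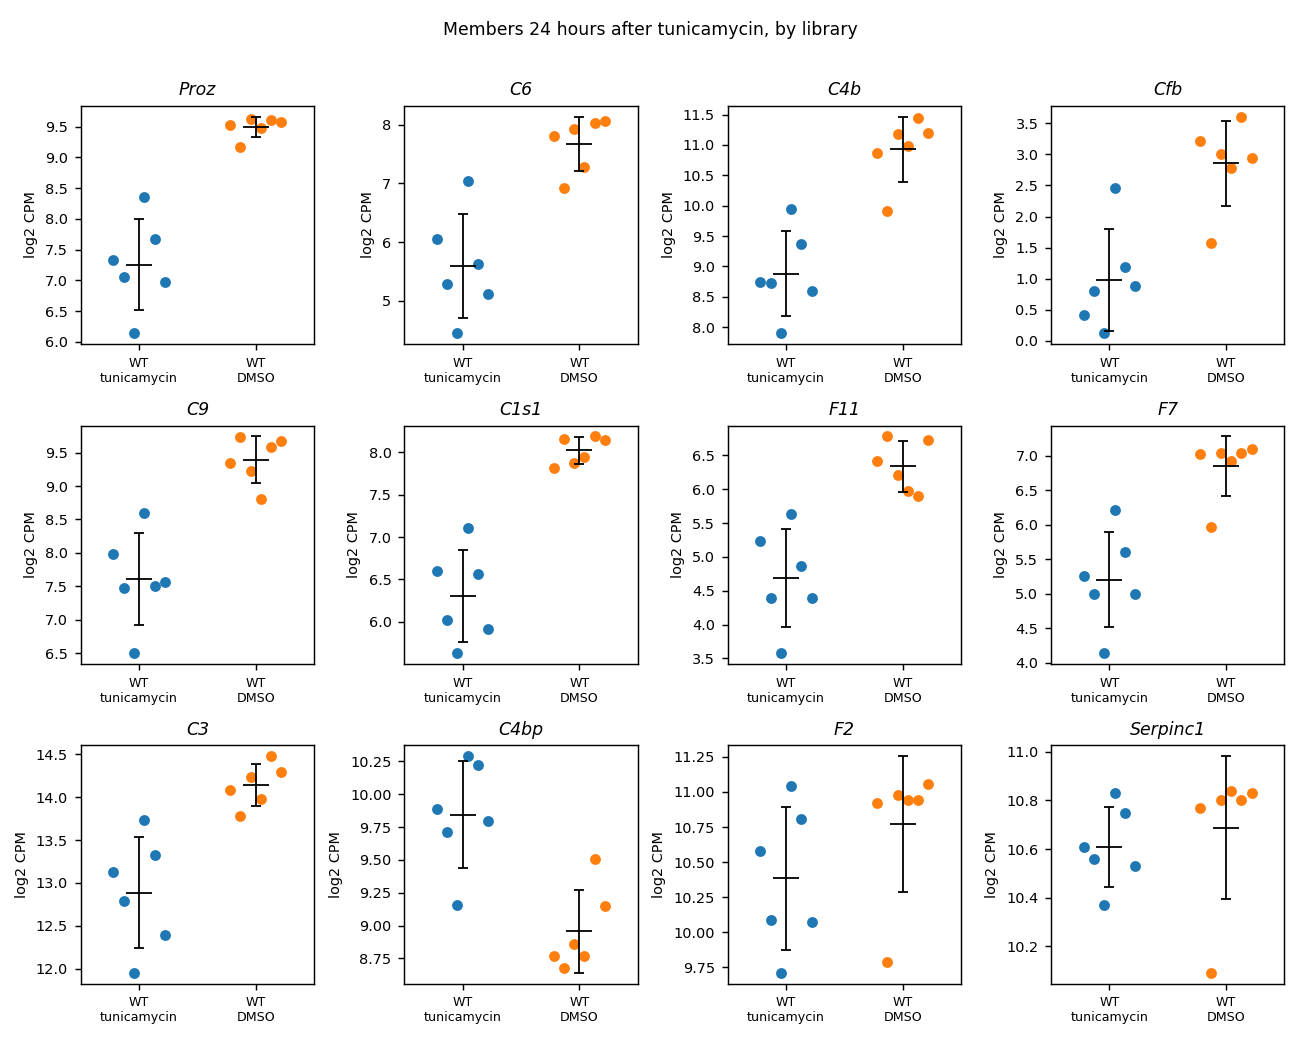
Level of 12 members (log2 CPM, y axis) in each tunicamycin and DMSO library, with the mean and SD of each group. Proz lies at 6.14 to 8.35 after tunicamycin and 9.17 to 9.63 after DMSO; C4bp is higher, and F2 and Serpinc1 overlap between the groups, with DMSO 2 at 9.79 and 10.09.

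The 6 tunicamycin libraries differed in depth of fall. Library 6 had the lowest level of Proz, C9, C3, F11 and F7, and 1 unnumbered library had the highest level of each of these. Of the 32 calls, 24 held under every alternative run in which they were tested and 29 without each library in turn. F3, counted among the 24, was tested in 8 alternatives only, because the filter at 4 CPM removed it. Without DMSO 2, which stood apart in 14 members, 36 members were lower and 1 higher. Serpind1 (adjusted p = 0.0535 to 0.0691 without any DMSO library but 2, or without tunicamycin 5, 6 or 1 unnumbered library), Cpb2 (up to 0.0626 without DMSO 2 or 5, tunicamycin 5 or 6 or that unnumbered library) and Plg (up to 0.0516 without tunicamycin 5 or that unnumbered library) lost their calls without single libraries.

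Of the wider genes 11 of 42 tested were higher and 18 lower after tunicamycin, where 45.3% of all genes were called higher and 13.5% lower. Both genes of the ER cargo receptor that carries factors V and VIII to the Golgi rose, Mcfd2 by 2.74 ± 0.19 (adjusted p = 3.79e-07) and Lman1 by 1.32 ± 0.13, while F5 and F8 themselves were not called. Mcfd2 was at 9.92 to 10.77 after tunicamycin and 7.09 to 7.91 after DMSO. The other great rises were in Anxa2 (3.16 ± 0.45), Plaur (3.07 ± 0.55) and S100a10 (1.95 ± 0.29), which form or hold receptors for plasminogen and urokinase. The 4 greatest falls were in Serpina5 (-5.61 ± 0.72), C4a (-2.48 ± 0.39), Hrg (-2.04 ± 0.27) and clusterin Clu (-1.93 ± 0.28). Serpina5 passed the filter only through the 6 DMSO libraries, at 0.62 to 1.45, against -6.40 to -1.93 after tunicamycin. It was tested only because it was high there, so its call and rank are given without weight. Serpina5 also lay at the lowest value of the table, that of 0 reads, in 2 tunicamycin libraries, so its fold change depends on the prior count. Mcfd2 and Lman1 were also higher in PiZ against WT, by 0.74 ± 0.13 and 0.39 ± 0.10. The median of all genes in that comparison was 0.40, so Lman1 rose no more than the median gene.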

How the data were processed

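Liver RNA-seq was measured in 34 libraries, deposited as 2 tables of log2 CPM per gene. Per the submitters' processing notes the tools were bcl2fastq, DRAGEN, STAR, Subread with featureCounts and edgeR, on GRCm38; versions and strand settings are not given in the sources used here. The deposited log2 values hold no scaling between libraries that the files show. Values were fitted per table with limma 3.58.1 in R 4.3.3 (trended eBayes, Benjamini-Hochberg adjustment over all genes tested, threshold 0.05), WT PBS 2 left out. Genes above 0 log2 CPM in at least 5 libraries (first table, 13285 genes) or 6 (second table, 13388) were tested, and the fit was tested on simulated data. Members, wider genes and marker lists were chosen with earlier results of these data known. Named are the 6 members with the greatest called rise and fall per comparison, 7 central genes (Fga, Fgb, Fgg, C3, F2, Serpinc1, Plg) throughout, and up to 4 wider genes per direction. Alternatives changed libraries, weights, scaling, pseudocount, filter, groups fitted and block. Some genes of these pathways are not reported here.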

Additional observations from a re-analysis of the deposited data

Results flagged for a closer look

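A value was set apart where the gap between the highest or lowest library of a group and its nearest neighbour was large against the whole range of the group (Dixon's criterion). Chance alone sets apart about 1 in 20 groups, and 36 of the 348 groups of values examined, over members and wider genes, were so marked. Values are log2 CPM with the range of the other libraries of the group in parentheses. PiZ 4 lay below the other libraries of its group in F12 at 8.55 (9.34 to 9.50), Masp2 at 6.64 (7.04 to 7.16), Mcfd2 at 8.04 (8.39 to 8.46) and Anxa2 at 6.31 (7.10 to 7.29). WT PBS 4 lay below the other libraries of its group in F12 at 8.85 (9.33 to 9.50), C4b at 9.66 (10.13 to 10.29) and Anxa2 at 3.09 (3.35 to 3.41). WT PBS 4 lay above the other libraries of its group in Klkb1 at 7.11 (6.79 to 6.88). TNFa 3 lay above the other libraries of its group in F13b at 7.87 (7.52 to 7.63). PiZ 3 lay above the other libraries of its group in Pros1 at 6.64 (6.54 to 6.57). TNFa 5 lay below the other libraries of its group in Plg at 10.45 (10.81 to 10.88). PiZ p50-KO 3 lay below the other libraries of its group in Serpinf2 at 9.25 (9.76 to 9.89), Cfb at 0.87 (2.40 to 2.85) and Masp2 at 7.0 (7.31 to 7.41). PiZ p50-KO 3 lay above the other libraries of its group in C8b at 9.32 (8.69 to 8.79). WT PBS 3 lay below the other libraries of its group in C1s1 at 7.51 (7.77 to 7.85). TNFa 4 lay below the other libraries of its group in C5ar1 at 2.35 (3.13 to 3.58), Plat at -1.59 (-0.75 to -0.26) and Plau at -0.30 (1.00 to 1.58). TNFa 1 lay below the other libraries of its group in Mbl2 at 7.37 (8.48 to 8.73). PiZ p50-KO 1 lay below the other libraries of its group in Lman1 at 8.04 (8.46 to 8.53). DMSO 2 lay below the other libraries of its group in F2 at 9.79 (10.92 to 11.06), F7 at 5.97 (6.92 to 7.10), F12 at 7.62 (9.26 to 9.40) and Proc at 8.76 (9.40 to 9.56). DMSO 2 lay below the other libraries of its group in Proz at 9.17 (9.48 to 9.63), Serpinc1 at 10.09 (10.77 to 10.84), Serpind1 at 8.35 (9.03 to 9.25) and Serpinf2 at 8.47 (9.51 to 9.96). DMSO 2 lay below the other libraries of its group in C4b at 9.91 (10.87 to 11.44), C8g at 6.95 (8.14 to 8.35) and Masp2 at 7.0 (7.74 to 7.85). DMSO 2 lay above the other libraries of its group in F8 at 4.90 (4.48 to 4.60), F13b at 8.70 (7.44 to 7.79) and Tfpi at 3.27 (1.77 to 2.29). DMSO 1 lay above the other libraries of its group in F3 at 2.51 (1.48 to 1.85). DMSO 2 held 14 of the 36 values. WT PBS 2, which entered no comparison, lay above the other 5 WT PBS libraries in F8 at 4.88 (3.71 to 3.95), F3 at 4.84 (0.06 to 1.26), C1qb at 4.87 (4.50 to 4.83), C5ar1 at 3.91 (0.55 to 1.36) and C3ar1 at 3.82 (0.96 to 1.59).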

How the results depend on the processing

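The count of members called moved by more than 1.5 times under several alternatives, and the cause was not tested unless the construction shows it. With all 22 libraries, WT PBS 2 included, it was 8 for PiZ against WT (28 otherwise), 3 for PiZ p50-KO against PiZ (12), 0 for PiZ p50-KO against WT (3) and 7 for PiZ against TNFa (28). With all 22 libraries and array weights together it was 5 for TNFa against PBS (1) and 13 for PiZ p50-KO against WT. After the shift to the same median it was 2 for TNFa, 25 for PiZ p50-KO against PiZ and 5 for PiZ p50-KO against WT. Quantile normalization gave 2 for TNFa and 1 for PiZ p50-KO against WT. The fit of only the 2 groups compared gave 5 for TNFa, 6 for PiZ p50-KO against PiZ and 1 for PiZ p50-KO against WT. All 22 libraries shifted to the same median, chosen after seeing the data, gave 6, 2, 0 and 2 for the comparisons of PiZ with WT, PiZ p50-KO with PiZ, PiZ p50-KO with WT and PiZ with TNFa. Leaving out single libraries gave 2 to 6 for PiZ p50-KO against WT and 29 to 37 for tunicamycin. The replicate block gave 2 for TNFa, 3 for PiZ p50-KO against PiZ and 0 for PiZ p50-KO against WT, and ended the call of C4bp after tunicamycin. Some same-numbered libraries deviated together (correlation 0.564 for number 4 of PiZ and WT PBS) and others did not (-0.178 for number 1), so the numbers were not taken to pair the libraries.

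In PiZ against WT these log2 fold changes turned positive with all 22 libraries at equal weight: F2 0.224, F7 0.042, F10 0.49, Fga 0.194, Fgg 0.418, Klkb1 0.024, Kng1 0.298, Proc 0.172, Proz 0.023, Plg 0.062, C1s1 0.227 and C8b 0.14. With these libraries also shifted to the same median F2 was 0.006, F10 0.273, Fgg 0.201, Kng1 0.081 and C1s1 0.01. After the shift alone C8a was -0.157, Masp1 -0.146 and Serping1 -0.225, and F13b in PiZ against TNFa was -0.084, or -0.09 with all 22 libraries. No effect of depth on the precision of single members was tested.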
